A study of Mus musculus with 6 samples.

Results

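The regions described here are peaks of a streptavidin pull-down that were listed only for untreated cells and that lay inside protein-coding genes. The untreated peak list held 4379 intervals, and 4304 of them overlapped no interval of the doxycycline list by 1 bp or more. Of these, 1630 (37.9%, 95% Clopper-Pearson interval 36.4 to 39.3) had their midpoint within the interval of a protein-coding gene. They were 1630 of 8019 peaks in both lists together. The values that chose them were presence in one list, absence from the other and position in a gene, so those facts are a description and carry no test. The comparison class is the 1591 doxycycline-only peaks chosen by the same gene rule.

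The study profiled the repressor form of the transcription factor GLI3 (GLI3R) by ChIP-seq in cardiac progenitors derived from mouse embryonic stem cells, harvested on day 6. All 6 libraries came from the A2Lox.cre strain and the line GLI3R-FTA, which carries a tagged GLI3R. The untreated cells gave 2 pull-downs and 1 input. The cells induced with 500 ng/ml doxycycline from day 5 for 24 h also gave 2 pull-downs and 1 input. The pull-downs used streptavidin beads and the Avi-tag in both conditions, while the inputs had no pull-down. The treatment text of the labels speaks of GLI1, the titles of GLI3R, and the titles were followed. Only 1 peak list per condition was analysed, so every test below compares 2 lists and not conditions with replicates. Peak lists hold no expression values, so the labelled cell type could not be checked against marker genes.

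An Avi-tag is a short peptide that the enzyme BirA joins to biotin, and streptavidin beads then capture the biotin-bearing protein with the DNA cross-linked to it. A bead pull-down also recovers some DNA that has nothing to do with the tagged protein. Peaks called in cells that were not induced are one view of that background. GLI3R represses Hedgehog target genes when no ligand is present, and GLI proteins bind the sequence GACCACCCA or close relatives of it. Mammalian genes differ widely in length, and many of the longest encode synaptic, adhesion and channel proteins used in neurons.

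Sequences are shown for the few gene starts that the peaks touched, because gene starts were touched by one class of peaks far more than by the other. RefSeq promoter windows on GRCm38.p6, the assembly of mm10, run from 250 bases before to 50 bases after a gene's start, and there were 32851 of them. Of the untreated-only peaks, 2 overlapped a window. One was in Pappa2, which encodes a protease of insulin-like growth factor binding proteins. The other lay in Mthfd1, an enzyme of folate metabolism, at the window of the gene model Gm40443. Capitals mark the bases the peak covers.
Pappa2 window, chr1:158958126-158958425, minus strand: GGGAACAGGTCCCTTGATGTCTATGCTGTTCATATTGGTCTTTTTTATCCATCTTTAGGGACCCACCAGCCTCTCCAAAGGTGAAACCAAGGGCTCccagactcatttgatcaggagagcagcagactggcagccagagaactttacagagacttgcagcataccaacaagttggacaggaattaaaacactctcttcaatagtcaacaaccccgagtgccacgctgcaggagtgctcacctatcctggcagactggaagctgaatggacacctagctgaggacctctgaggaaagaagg
Gm40443 window, chr12:76319534-76319833, minus strand: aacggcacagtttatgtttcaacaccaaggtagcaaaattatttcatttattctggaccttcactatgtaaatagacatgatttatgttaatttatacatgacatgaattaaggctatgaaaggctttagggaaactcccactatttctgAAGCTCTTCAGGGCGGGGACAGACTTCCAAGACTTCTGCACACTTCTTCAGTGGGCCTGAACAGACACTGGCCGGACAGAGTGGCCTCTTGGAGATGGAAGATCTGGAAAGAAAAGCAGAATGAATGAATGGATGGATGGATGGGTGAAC

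The Pappa2 peak covered 96 bases of its window, with 5.50-fold enrichment and 6 fragments at the summit. The Gm40443 peak covered 150 bases with 5.18-fold enrichment, also at 6 fragments. G and C made up 49.7% and 42.0% of these 2 windows, and neither holds GACCACCCA or its reverse complement TGGGTGGTC. Both strands were searched for these 2 words, which do not overlap each other. Over all windows the median GC content was 52.7%, and 83 of 32851 (0.253%) hold one of the words.

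Of the doxycycline-only peaks in gene bodies, 60 overlapped a promoter window, and they touched 64 windows with a median GC content of 65.7%. The motif was present in 3 of the 64, at Slc35f5, a solute carrier, at Uaca, and at Gnb1l. Each motif lay under the peak, whose enrichment was 7.79-fold at Slc35f5, 5.85-fold at Uaca and 4.87-fold at Gnb1l. Here capitals mark the motif.
Slc35f5 window, chr1:125560345-125560644, plus strand: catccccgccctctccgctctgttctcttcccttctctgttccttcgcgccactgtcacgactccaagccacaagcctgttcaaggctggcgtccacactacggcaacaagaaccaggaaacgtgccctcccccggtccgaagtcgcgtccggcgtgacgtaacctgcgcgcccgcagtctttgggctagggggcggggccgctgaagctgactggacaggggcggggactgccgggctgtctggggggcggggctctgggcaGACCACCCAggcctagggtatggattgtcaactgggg
Uaca window, chr9:60794192-60794491, plus strand: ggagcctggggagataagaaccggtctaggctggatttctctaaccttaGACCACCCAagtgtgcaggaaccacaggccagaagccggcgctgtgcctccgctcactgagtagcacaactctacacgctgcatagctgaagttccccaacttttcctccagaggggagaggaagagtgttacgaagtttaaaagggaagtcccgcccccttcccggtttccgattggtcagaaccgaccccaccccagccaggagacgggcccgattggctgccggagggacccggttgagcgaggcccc
Gnb1l window, chr16:18498463-18498762, plus strand: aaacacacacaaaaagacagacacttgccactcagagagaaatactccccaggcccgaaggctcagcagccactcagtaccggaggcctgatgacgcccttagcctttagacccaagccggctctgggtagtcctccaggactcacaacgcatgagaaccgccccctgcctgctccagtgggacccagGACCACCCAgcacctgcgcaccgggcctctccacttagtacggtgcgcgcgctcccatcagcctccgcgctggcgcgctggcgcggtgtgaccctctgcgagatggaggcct

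As shares, 0.123% of the untreated-only peaks (2 of 1630, interval 0.0149 to 0.443) overlapped a promoter window, against 3.77% of the doxycycline-only peaks (60 of 1591, 2.89 to 4.83). By Fisher's exact test, two-sided, this gave an odds ratio of 0.0313 and an adjusted p of 4.15e-16. This test was chosen after seeing the data. In both classes the midpoint had to lie in a gene, so peaks centred before a gene's start were left out unless another gene held them. The share of gene body that lies in promoter windows was not computed. The 3 Fisher tests of this report take peaks as independent and were adjusted together by the Benjamini-Hochberg method.

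The untreated-only peaks were small. The number of fragments over the summit, worked back from the authors' fold and −log10 p, had a median of 5 and a maximum of 15. It was 4 at 588 peaks, 5 at 520, 6 at 254 and 7 at 134, and 10 or more at 34. Fold enrichment had a median of 4.72 and reached 12.1, and the −log10 q had a median of 2.52 and reached 16.1. In the doxycycline-only class the median was 7 fragments and 5.78-fold. That list had a background of 0.368 fragments, and its smallest peaks in gene bodies had 5 fragments, against 4 in the untreated-only class. The medians are thus read above unlike floors. Since the local expectation equalled the list background of 0.272 fragments at most of the untreated-only peaks, 4 fragments there always read 3.93-fold and 5 fragments 4.72-fold. The same fold at many peaks is therefore the same small count. No untreated-only peak had an expectation above 2 times background. Their widths ran from 134 to 418 bp with a median of 153 bp.

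Untreated-only peaks were denser in long genes than in short ones, and doxycycline-only peaks were denser in short genes. Genes were sorted by the length of their RefSeq interval, and each base was given to the longest gene over it, which left 1029.7 Mb of gene body. Genes under 10 kb held 0.663 untreated-only peaks per Mb (95% Poisson interval 0.405 to 1.02), against 2.55 doxycycline-only peaks per Mb (2.01 to 3.19). From 10 to 30 kb the densities were 1.14 (0.956 to 1.36) and 1.74 (1.504 to 1.996). From 30 to 100 kb they were 1.58 (1.44 to 1.74) and 1.67 (1.52 to 1.83), and from 100 to 300 kb 1.63 (1.49 to 1.79) and 1.62 (1.48 to 1.77). In these middle classes, which hold most of the gene body, the intervals of the 2 classes of peaks overlapped.

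Above 300 kb the order was the opposite of that in short genes. From 300 to 1000 kb the densities were 1.64 untreated-only peaks per Mb (1.48 to 1.81) and 1.26 doxycycline-only peaks per Mb (1.12 to 1.41). In genes of 1000 kb or more they were 2.22 (1.90 to 2.57) and 1.05 (0.833 to 1.30). The density in genes of 300 kb or more was 1.28 times that in genes under 100 kb for the untreated-only peaks (1.13 to 1.44), and 0.687 times for the doxycycline-only peaks (0.606 to 0.779). These intervals cover counting error only.

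**Figure D1:**
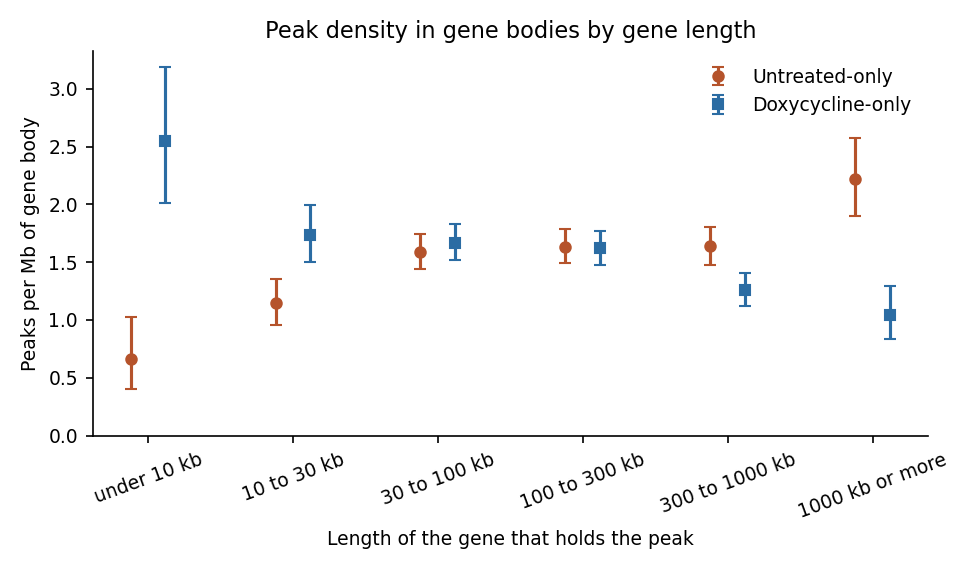
Peaks per Mb of gene body (y axis) by length of the host gene (x axis) for untreated-only (circles) and doxycycline-only peaks (squares), with 95% Poisson intervals as bars. The untreated-only density climbs to 2.22 per Mb in genes of 1000 kb or more and the doxycycline-only density declines to 1.05 per Mb there.

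Of the untreated-only peaks, 564 lay in a gene of 300 kb or more (34.6%, 32.3 to 37.0), against 381 doxycycline-only peaks (23.9%, 21.9 to 26.1). The difference was 10.7 percentage points with an odds ratio of 1.68 (Fisher's exact test, two-sided, adjusted p = 5.01e-11). Such genes make up 30.7% of the gene body, so the first share lay above it and the second below. The median host gene of an untreated-only peak was 163 kb long, with quartiles of 69.5 and 439 kb. For the doxycycline-only peaks the median was 115 kb and for a base of gene body it was 141 kb. The median protein-coding gene is 17.3 kb long.

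Members of 1 gene are not independent, and genes with 3 or more were mostly long, so the p for long genes may be too small. The genes themselves were therefore also counted, without a test. Of 21631 protein-coding genes, 1280 held an untreated-only peak (5.92%), against 1318 with a doxycycline-only peak (6.09%). By length class the share with an untreated-only peak was 0.258% under 10 kb, 2.03% from 10 to 30 kb and 8.2% from 30 to 100 kb. It was 22.8% from 100 to 300 kb, 46.8% from 300 to 1000 kb and 91.5% at 1000 kb or more, where 54 of 59 genes held one. The share with a doxycycline-only peak climbed with length too. In the same classes it was 0.930%, 2.86%, 8.07%, 21.0%, 43.4% and 78.0%. Among genes of 1000 kb or more, 37 held more untreated-only than doxycycline-only peaks, 8 held fewer and 12 held equal numbers above 0. Among genes under 10 kb, 19 held more untreated-only peaks and 71 held more doxycycline-only peaks. Both kinds of peak occurred in 300 genes, which are 23.4% of the genes with an untreated-only peak and 22.8% of those with a doxycycline-only peak.

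Untreated-only peaks were sparse beside gene ends. Within 1 kb of either end of the host gene there were 0.692 per Mb (0.456 to 1.01), against 4.33 doxycycline-only peaks per Mb (3.70 to 5.04). Between 1 and 5 kb the values were 1.35 (1.16 to 1.57) and 2.05 (1.81 to 2.32). From 20 to 50 kb they were 1.65 (1.49 to 1.83) and 1.40 (1.25 to 1.57), and beyond 200 kb 1.96 (1.71 to 2.25) and 0.9495 (0.773 to 1.15). The median untreated-only peak lay 33.3 kb from the nearer end, and the median doxycycline-only peak 19.1 kb.

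**Figure D2:**
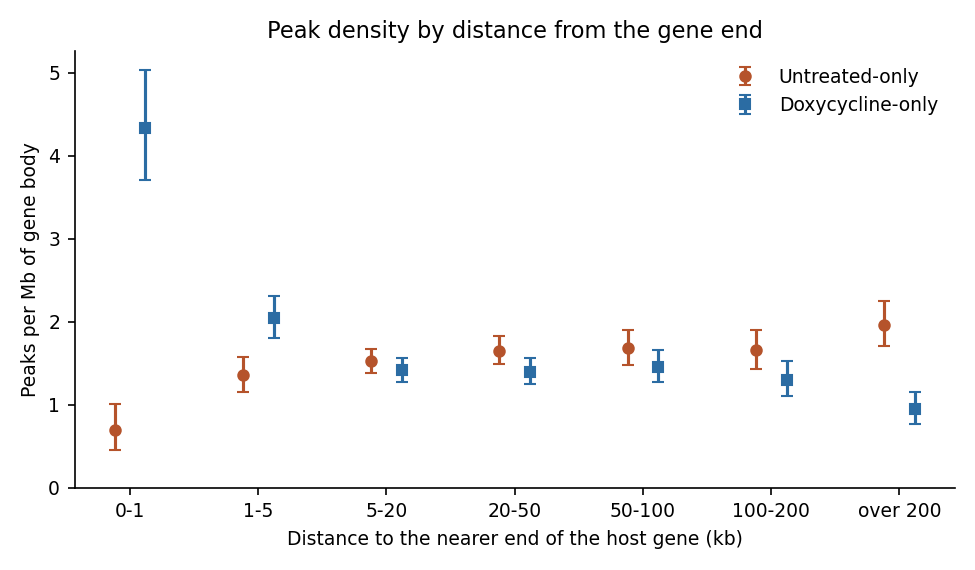
Peaks per Mb of gene body (y axis) by distance of the peak's midpoint from the nearer end of its gene in kb (x axis), for untreated-only (circles) and doxycycline-only peaks (squares), with 95% Poisson intervals. Within 1 kb of an end the classes stand at 0.692 and 4.33 per Mb, and beyond 200 kb at 1.96 and 0.9495 per Mb.

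Length and distance from an end are tied together, so length was read again at sites over 20 kb from both ends. There the untreated-only density was 1.64 per Mb in genes under 100 kb (1.38 to 1.95), 1.63 in genes of 100 to 300 kb (1.47 to 1.81) and 1.66 in genes of 300 to 1000 kb (1.49 to 1.84). Away from gene ends these 3 densities differed by less than their counting error. In genes of 1000 kb or more the density there was 2.19 per Mb (1.88 to 2.55). The doxycycline-only density at the same sites was 1.47, 1.46, 1.21 and 1.03 per Mb in these 4 length classes.

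Along the gene, from its start, the untreated-only peaks thinned out slightly. Strand was taken from the promoter table, which covered the hosts of 1273 of the 1630 peaks. With each gene cut into 5 equal stretches from start to end, these held 22.0%, 22.2%, 19.3%, 19.1% and 17.4% of the untreated-only peaks. For the doxycycline-only peaks, 1243 of which had a strand, the stretch next to the start held 30.1% (27.5 to 32.7) against 22.0% (19.7 to 24.4) of the untreated-only peaks. A start rich in CpG is typical of widely expressed genes. Hosts with a CpG-rich promoter window (GC of at least 55% and an observed over expected CpG ratio of at least 0.65) held 1.61 untreated-only peaks per Mb, and hosts with a window that is not CpG-rich 1.54 (intervals 1.48 to 1.74 and 1.43 to 1.67). For the doxycycline-only peaks these densities were 1.76 (1.63 to 1.89) and 1.33 (1.22 to 1.45). Hosts with no window in the table were left out of these densities.

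The share in long genes showed no trend with the size of the untreated-only peak. In genes of 300 kb or more lay 31.5% of the peaks with 4 fragments (27.7 to 35.4) and 38.1% of those with 5 (33.9 to 42.4). The shares were 34.6% at 6 fragments, 35.0% at 7 to 9 and 32.4% at 10 or more (17.4 to 50.5, 34 peaks). Among doxycycline-only peaks it declined with size, with 29.0% at 5 fragments (24.6 to 33.7), 27.3% at 6, 22.7% at 7 to 9, 17.2% at 10 to 14 and 5.26% at 15 or more (1.10 to 14.6). At 5 fragments, a count both classes hold, the shares were 38.1% and 29.0%, and their intervals did not overlap. That count was the smallest in the doxycycline-only class, while the untreated-only class began at 4. At the smallest count of each class the shares were 31.5% and 29.0%, with overlapping intervals. At 6 fragments the intervals overlapped (28.8 to 40.8 and 22.6 to 32.4).

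**Figure D3:**
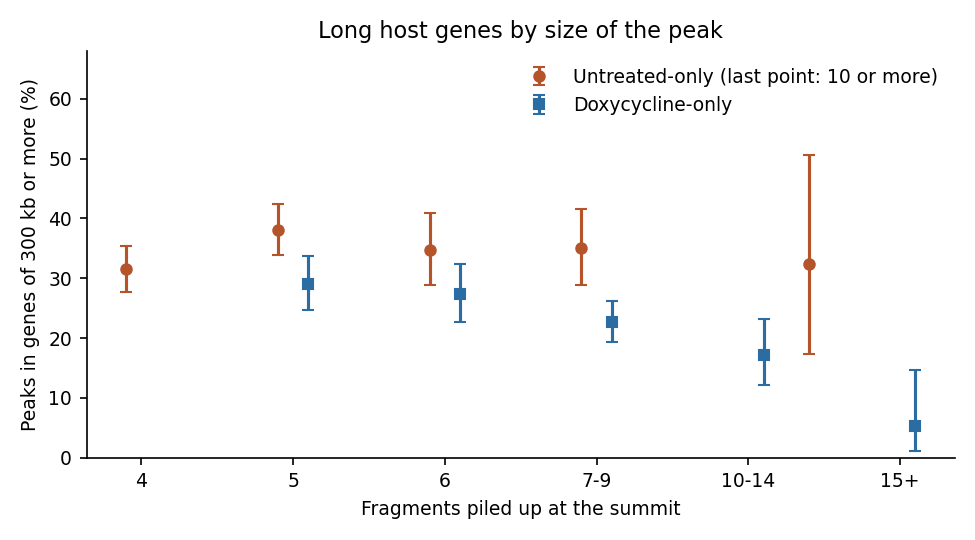
Share of peaks in genes of 300 kb or more in percent (y axis) by number of fragments over the summit (x axis), with 95% Clopper-Pearson intervals; circles are untreated-only peaks (the last circle pools 10 or more fragments) and squares doxycycline-only peaks. The circles stay between 31.5% and 38.1%, while the squares decline to 5.26%.

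Most hosts held a single untreated-only peak (1068 genes), 132 held 2 and 80 held 3 or more. The 80 genes had a median length of 717 kb and held 298 of the peaks (18.3%), and 73 of them were 300 kb or longer. Of the doxycycline-only hosts, 48 held 3 or more. Tenm3 and Dpp10 led with 8 each. Tenm3, a teneurin that joins neurons across the synapse, is 1297 kb long on chromosome 8. Its 8 peaks stood at 3.93-fold (4 of them), 4.72-fold, 5.50-fold and 7.86-fold (2 of them, of 9 fragments each). One of those 2 lay at 49060105 to 49060265, 463 kb from the nearer gene end.

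Dpp10, an accessory protein of A-type potassium channels, is 1514 kb long on chromosome 1. Its 8 peaks read 3.93-fold at 3 sites, 4.72-fold at 2 and 5.50-fold at 3, so none had over 6 fragments. It held 0 doxycycline-only peaks, while Tenm3 held 4. From its length and the density of its length class, 3.36 peaks were expected in Dpp10 and 2.88 in Tenm3. These genes are named because they held the most peaks, so the excess over expectation is a description of how they were chosen.

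The teneurin Tenm2, the RNA-binding protein gene Rbms3 and the alpha-catenin gene Ctnna3 followed with 6 each, against 1, 1 and 2 doxycycline-only peaks. The 6 peaks of Rbms3 ran from 3.93-fold to 7.07-fold. In all 9 genes held 5 untreated-only peaks, and 7 of them completed the 12, with ties broken by the strongest peak. They were Dlg2 and Lrrc7, which encode scaffold proteins of the synapse, Macrod2, Nkain2, Diaph2, an actin-nucleating formin, the growth factor gene Nrg1 and the splicing regulator gene Rbfox1. Of these, Lrrc7 is the shortest at 495 kb. Its 5 peaks read 4.72-fold at 3 sites, 5.50-fold and 7.86-fold, against 0.809 peaks expected, with 0 doxycycline-only peaks. Diaph2 lies on the X chromosome, with peaks of 3.93-fold at 3 sites, 5.50-fold and 7.07-fold.

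**Figure D4:**
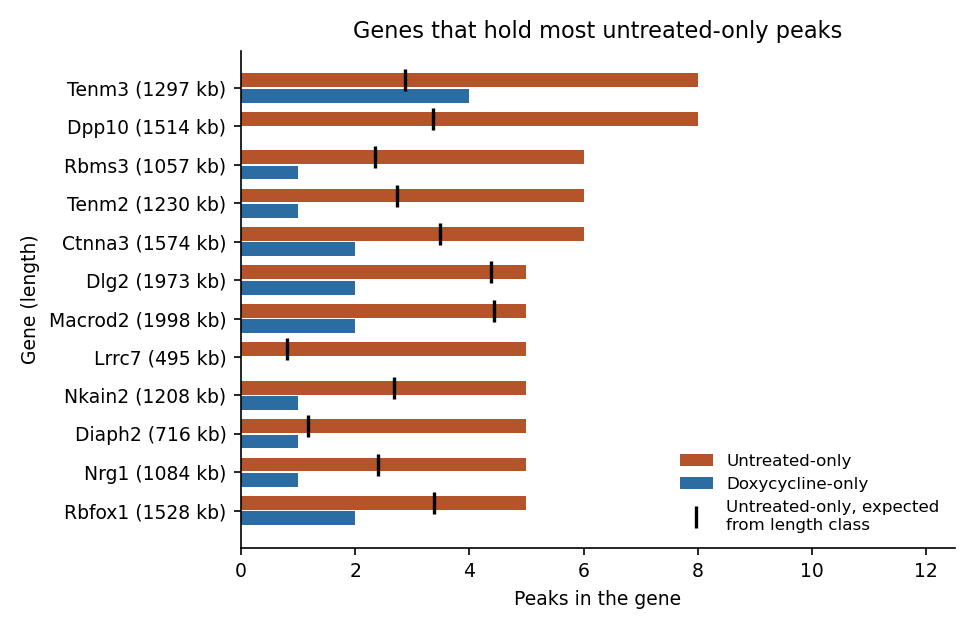
Number of untreated-only (upper bar) and doxycycline-only peaks (lower bar) in the 12 genes with most untreated-only peaks, with gene length in kb beside each name; the black tick is the untreated-only number expected from the length class. Tenm3 and Dpp10 stand at 8 peaks, against ticks of 2.88 and 3.36.

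The very longest genes did not hold the most. The 10 longest genes held 31 untreated-only peaks together, against 31.7 expected at the density over all gene body and 44.3 at that of their length class. They held 13 doxycycline-only peaks. Dmd, which encodes dystrophin and is the longest at 2390 kb, held 1 (4.72-fold). It lies on the X chromosome. Cntnap2 held 2, Lsamp 1 and Lrp1b 2, and Fhit 2. Ptprd, a receptor phosphatase of the synapse, Macrod2 and Dlg2 held 5 each, and Csmd1 and Nrxn3 held 4 each. Each of these genes held at least 1.

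Gene types were read against gene length, using 9 gene lists and 15 classes of gene symbol. Of 59 genes of synaptic and neuronal adhesion, 29 (49.2%) held an untreated-only peak, far above the 5.92% over all genes. Their 70 peaks compare with 59.4 expected from their gene-body length at the overall density and 73.4 at the density of each gene's length class. The same genes held 31 doxycycline-only peaks, where 43.7 were expected at the doxycycline-only density of each gene's length class. Leading members were Tenm3, Tenm2, Ptprd and Adgrb3, an adhesion receptor of synapses whose strongest of 4 peaks reached 8.65-fold. The count in this list lay near what its length classes give. Those densities include the peaks of the listed genes themselves, so the observed and expected counts of a list are partly tied.

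Mouse counterparts of human common fragile site genes, which are long genes where human chromosomes break under replication stress, overlap that list. Of 27, 24 held an untreated-only peak. They had 71 peaks against 77.4 expected from their length classes, and 30 doxycycline-only peaks against 39.5. Glutamate and GABA receptors had 15 of 40 genes with 21 peaks against 20.7 expected, led by the metabotropic glutamate receptor Grm7 with 4. Axon guidance genes had 12 of 48 with 26 peaks against 23.2 expected. The netrin receptor Dcc led them with 4 peaks at 5.50-fold (2 sites), 7.86-fold and 10.2-fold. The ligands Slit2 and Slit3 held 3 each.

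Of 35 sarcomere and muscle membrane genes, 10 held 16 untreated-only peaks against 18.2 expected from length class, while 3 held 3 doxycycline-only peaks, against 11.7 expected in the same way. Sgcd and Sgcz, sarcoglycans of the muscle membrane, held 4 and 3 untreated-only peaks and 0 doxycycline-only peaks. The L-type calcium channel gene Cacna1c held 2. Neb, a giant sarcomere protein, held 1 at 9.43-fold. Of 29 heart field transcription factors, which are mostly short genes (median 11.4 kb), 1 (3.45%) held an untreated-only peak, against 2.25 peaks expected from length class, and 5 held 1 doxycycline-only peak each, against 2.33 expected. The untreated-only peak lay in Meis2 at 5.50-fold.

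Families named by symbol are given by their untreated-only count beside the count expected from length class, with no test of the difference. Potassium channels had 17 peaks against 17.7 expected from length class, with Kcnd2 at 3. Calcium channel subunits had 8 against 8.00, 4 of them in Cacna1e. Receptor-type tyrosine phosphatases had 14 against 14.8, phosphodiesterases 10 against 9.78 (4 in Pde4d), protocadherins 9 against 7.09 (4 in Pcdh9) and adhesion G protein-coupled receptors 7 against 6.19. Cadherins had 6 against 11.6 and solute carriers 25 against 30.8. Zinc finger genes named Zfp had 17 against 18.9, and genes named Tmem 11 against 12.1.

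Short genes had few peaks and few were expected. Among 1110 olfactory receptors 2 held an untreated-only peak (1.76 expected), Olfr994 at 8.65-fold and Olfr646 at 4.72-fold. Of 355 vomeronasal receptors Vmn2r84 held 1 (4.66 expected), and of 53 keratins Krt28 held 1 (0.406 expected). The 85 ribosomal protein genes, 67 histone genes and 20 housekeeping genes held 0, where 0.206, 0.112 and 0.351 were expected. The 10 genes of biotin-dependent enzymes and biotin handling also held 0, against 2.07 expected. Biotin-dependent carboxylases are proteins that carry biotin themselves.

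Hedgehog pathway genes held untreated-only peaks as well as doxycycline-only peaks. Of 26, 7 held 8 untreated-only peaks against 3.05 expected from length class, and 6 held 9 doxycycline-only peaks against 3.19 expected in the same way. Hhat, the acyltransferase that adds palmitate to the ligand, held 2 (6.29-fold and 4.72-fold). Scube2, which helps release the ligand, held 1 at 6.29-fold, and Evc2, a ciliary protein that acts with Smoothened, 1 at 5.50-fold. Among coreceptors of the ligand, Boc held 1 at 3.93-fold and Cdon 1 at 3.87-fold. Both rest on 4 fragments. Gli2, a transcription factor of the pathway, held 1 at 5.50-fold (chromosome 1, 118970425 to 118970585).

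The 2 strongest doxycycline-only peaks in pathway genes lay in Ptch1. The strongest untreated-only peak in a pathway gene had 7 fragments, whereas Ptch1, the receptor gene and a direct GLI target, held doxycycline-only peaks of 25, 13 and 6 fragments and no untreated-only peak. Hhip, which binds the ligand, held 2 of 9 fragments and also no untreated-only peak. The rule drops any untreated peak that overlaps a doxycycline interval. The lack of an untreated-only peak therefore does not show that untreated cells had no peak in Ptch1 or Hhip. Hhat, Scube2, Gli2 and Boc held 1 doxycycline-only peak each, of 8, 5, 5 and 5 fragments.

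The strongest untreated-only peaks lay in genes of varied kinds. Itga11, a collagen-binding integrin, held the highest at 12.1-fold with 15 fragments (chromosome 9, 62722110 to 62722258). Arhgef33 followed at 11.3-fold and Pcolce2, an enhancer of procollagen processing, at 11.004-fold. Dner, Dcc, Nubpl, Tnfaip8l1 and Glb1l3 held peaks of 10.2-fold, Ninj2 one of 10.1-fold and Pls1 one of 10.01-fold. The others of the first 12 were 9.43-fold and lay in Numb, which restrains Notch signalling, and Oc90. The same fold was also read in Neb and Adgrg7, which share that rank. Apart from Dcc, each of the genes named here held only that 1 untreated-only peak.

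The X chromosome held few. Its gene bodies had 0.701 untreated-only peaks per Mb (0.479 to 0.989) against 1.62 on the autosomes (1.55 to 1.71), a ratio of 0.432. For the doxycycline-only peaks the ratio was 0.233. Of the untreated-only peaks 32 lay on X (1.96%, 1.35 to 2.76), and of the doxycycline-only peaks 17 (1.07%, 0.624 to 1.71), where X holds 4.43% of the gene body. The difference between the classes passed narrowly (odds ratio 1.85, Fisher's exact test, two-sided, adjusted p = 0.0435). It did not pass the exact test with peaks of at least 5 fragments (16 against 17 peaks, adjusted p = 0.290). Nor did it with a −log10 q of at least 3 (7 against 11 peaks, exact test, adjusted p = 0.451). Among autosomes the untreated-only density ran from 1.36 per Mb on chromosome 13 to 2.01 on chromosome 10.

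**Figure D5:**
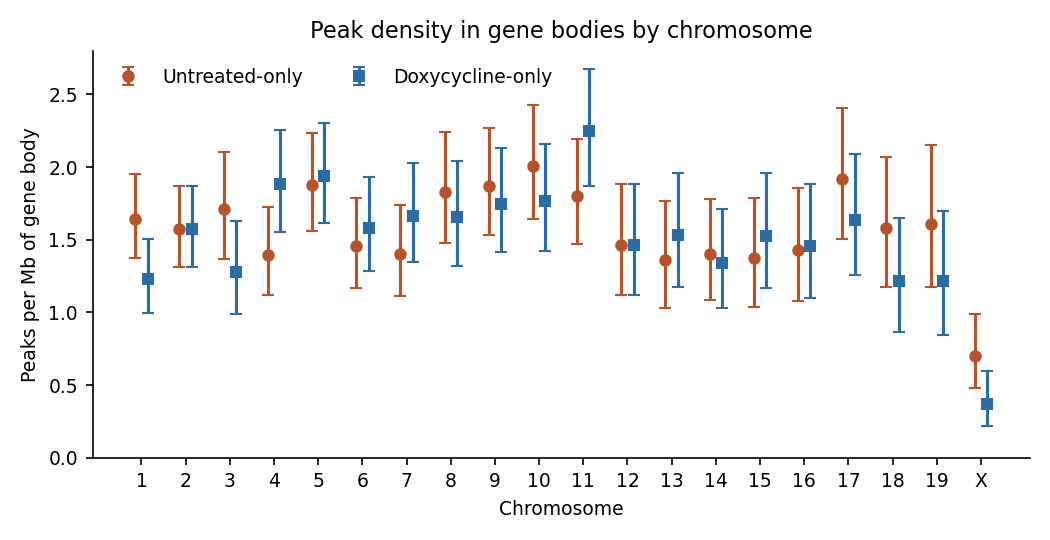
Peaks per Mb of gene body (y axis) by chromosome (x axis) for untreated-only (circles) and doxycycline-only peaks (squares), with 95% Poisson intervals. On the X chromosome the classes stand at 0.701 and 0.372 per Mb, and each autosome's untreated-only value lies between 1.36 and 2.01 per Mb.

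The density of peaks also differed with the number of genes around the position, a count that includes the host. Where at most 4 protein-coding genes lay within 500 kb, the untreated-only density was 1.78 per Mb (1.63 to 1.93), against 1.23 for the doxycycline-only peaks (1.10 to 1.36). Of the 300.2 Mb of gene body in such surroundings, 216.9 Mb lay in genes of 300 kb or more, so this contrast overlaps that of gene length. Where 15 to 74 genes lay within that distance, the values were 1.40 (1.26 to 1.55) and 1.94 (1.78 to 2.12). Within hosts under 100 kb the doxycycline-only density was the higher one in both of these surroundings, with overlapping intervals where at most 4 genes lay nearby. With at most 4 such genes the densities there were 1.23 (0.838 to 1.73) and 2.11 (1.59 to 2.74). With 15 to 74 they were 1.38 (1.23 to 1.56) and 2.03 (1.84 to 2.24). With 5 to 8 genes nearby the doxycycline-only density in these hosts was also the higher one, with overlapping intervals. With 9 to 14 it was the lower one, at 1.23 (1.04 to 1.45) against 1.53 (1.31 to 1.77), and these intervals overlapped. Over hosts of all lengths the intervals of the classes overlapped both with 5 to 8 and with 9 to 14 genes. The untreated-only peaks were mostly far apart, with a median of 324 kb to the next one, and 74 of them had another within 10 kb.

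The rule drew sharp lines through similar peaks. Closest inside a gene end were peaks in Smc2, Uncx and Fam167a, at 0.044, 0.056 and 0.154 kb from it, each 3.93-fold. Closest outside were peaks at 0.02 kb from Prss1 and 0.038 kb from Exosc5, each 3.93-fold, and one of 4.72-fold at 0.065 kb from Cenpm. The member nearest to a doxycycline interval lay 0.002 kb away, in Nlrc4 at 5.50-fold. Of 13 untreated peaks in genes that were dropped for overlap, the one with the smallest shared stretch, 4 bp, lay in Lrriq3 at 4.72-fold. Of the 1630 members, 4 lay within 1 kb of a doxycycline interval and 46 within 10 kb.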

How the data were processed

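The data were 1 peak list per condition, and the labels give 2 pull-downs per condition. The build was mm10 and the tools were MACS2 2.1.1, Bowtie2 2.3.2 and SAMtools 1.5, per the submitters' processing notes. Their settings, any pooling of pull-downs and the use of inputs are not given in the sources used. Fold enrichment is a ratio that the authors deposited, and −log10 p and −log10 q are the authors' deposited values. The score deposited by the authors was not used. All of these belong to single peaks and describe a peak within its list.

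Rows of 1 interval were merged to the one with the highest −log10 q, on 20 chromosomes. Fragments at the summit were recovered from fold = (fragments + 1) / (expectation + 1) and an upper-tail Poisson p, which matched within 0.01 of −log10 p for 100% of members and of doxycycline-only gene-body peaks. Depth per library is not given by these files. Genes came from RefSeq on GRCm38.p6 (21631 protein-coding genes), and a midpoint in more than 1 gene (16 members) was given to the longest. Promoter windows covered 79.9% of these genes. Distances were set against gene-body positions every 100 bases. Expected numbers are gene-body length times density, with no random draws. Shares have Clopper-Pearson and densities exact Poisson 95% intervals. All counts of gene lists are descriptions. No genome sequence was used, so peaks outside promoter windows have no sequence here.

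The genes named are the hosts of the 12 strongest members and the 12 with most members, the 10 longest genes, up to 4 per list or symbol class, Hedgehog genes with a member and those at the edges of the rule. Some genes that the rule takes are not reported here. Ptch1, Hhip, Mthfd1 and the genes of promoter windows or of the overlap edge were added after their values were seen. The members and lists were chosen with earlier results of these data known. The pattern that sorts ribosomal protein genes was narrowed after it caught a kinase gene. The steps were tested on simulated data. Tests and intervals came from scipy 1.17.1 and statsmodels 0.14.6, tables from pandas 2.3.3 and numpy 2.4.6, and plots from matplotlib 3.10.9, under Python 3.11.15.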

Additional observations from a re-analysis of the deposited data

How the results depend on the processing

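Alternatives were the summit in place of the midpoint, the shortest gene as host, at least 5 fragments, dropping peaks within 1 kb of the other list, leaving out sites of high local expectation, a −log10 q of at least 3, and 100 or 1000 kb as the length of a long gene. The larger share of untreated-only than doxycycline-only peaks in long genes, and their smaller share at promoter windows, kept direction and passed under each one run for them. The summit, shortest-gene, 1 kb and expectation settings hardly changed the counts, so passing there adds little. Their counts in long genes were 564 and 381, 562 and 377, 562 and 379, and 564 and 380, against 564 and 381 in the main setting. Requiring a −log10 q of at least 3 left 513 members in 462 genes, 11 with 3 or more, and with at least 5 fragments 1042 members, with 41 such genes. Fewer peaks pass by construction. The difference on the X chromosome did not pass in either setting, with 1.36% and 1.54% of the members on X. The cause was not tested. No paired analysis was possible because a single list was at hand for either condition, and for that reason no replicate could be left out. Most members rest on 4 or 5 fragments, so absence from the other list shows only that its threshold was missed.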
